A study of Mus musculus with 15 samples.

Results

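The collagen genes of a mouse melanocyte line were followed through low oxygen and Hif1a knockdown on one-colour Affymetrix arrays. Members were all genes whose probe set is annotated with exactly 1 symbol of the form Col, number, a, number, and they numbered 44 of 22180 genes on the array. They were covered by 47 probe sets, and for Col1a2, Col5a1 and Col6a1, each with more than 1, the brightest one by its mean on the 15 arrays was used. One further probe set, annotated to Col6a1 together with other genes, was left out. The cells were melan-Ink4a-Arf-1 (labelled melan-a), an immortalized pigment cell line from Cdkn2a tm1RDp/tm1RDp mice, so every group carries the loss of that tumour suppressor locus and all values come from a single line. All groups grew with 10% serum, 200 nM of the phorbol ester TPA and 200 pM cholera toxin. The 5 groups held 3 arrays each, described by the series as biological triplicates. Normoxic cells had about 21% oxygen and 10% CO2. The hypoxia control, the negative control and the groups Si1 and Si6 spent 24 h at 1% oxygen and 5% CO2, so the oxygen and CO2 changes cannot be told apart. Si1 and Si6 received one of the small interfering RNAs (siRNAs) against Hif1a 24 h before hypoxia, and the labels do not say what the negative control received. Nothing says that the arrays came from cultures grown on separate occasions, so the p-values measure the spread between these samples.

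Collagens are secreted proteins in which 3 alpha chains, encoded by the same or by different genes, wind into a triple helix. Fibrillar collagens form the rope-like fibres of skin, bone and cartilage, type IV collagens form the sheet of the basement membrane on which epidermal melanocytes sit, and other classes coat fibres, build short-chain networks or span the cell membrane. Their chains are made stable by prolyl and lysyl hydroxylases that use oxygen, and several of those enzymes are well-known targets of hypoxia-inducible factor 1 (HIF-1), whose oxygen-regulated subunit is encoded by Hif1a.

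The siRNA target and the marker genes were read first. Group means of Hif1a were 10.34 log2 units in normoxia, 10.59 for the hypoxia control, 10.63 for the negative control, 8.65 for Si1 and 8.93 for Si6. All 10 melanocyte markers, among them Dct, Tyrp1 and Pmel, were above the dim limit defined below. Of the fibroblast markers, 6 of 10 were dim, Pdgfra, Dcn, Lum, Dpt, Fap and Twist2. The other 4, Pdgfrb, Thy1, Prrx1 and Pdpn, were above the limit in at least 1 group. The mean of all 10 ran from 5.83 to 6.14 over the 15 arrays. Dim genes also made up 5 of 7 keratinocyte, 4 of 6 endothelial and 5 of 6 macrophage markers. Over all genes, 58.2% were above the limit. Array medians lay between 6.52 and 6.61, and arrays of the same group correlated at 0.9931 or more over all probe sets.

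Because the deposited table holds no detection calls, a limit for dim genes was taken from the olfactory receptor genes, a large family that melanocytes are not known to use broadly. The limit was 6.62 log2 units, the 95th percentile of the highest group mean over 1088 olfactory receptor genes. By this rule 33 of the 44 collagens were above the limit in at least 1 group and 11 were dim, where 58.2% of all genes were above it. The dim genes were Col11a1 and Col24a1 among the fibrillar collagens, Col4a3, Col4a4 and Col4a5 of type IV, Col6a4, Col6a5 and Col6a6 of type VI, Col8a2, Col14a1 and Col19a1. Their highest group means ran from 5.53 for Col6a5 to 6.60 for Col14a1. Col22a1, at 6.66, was just above the limit. The levels are probe brightness, so they mark which genes are near background and do not rank one collagen against another.

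**Figure D1:**
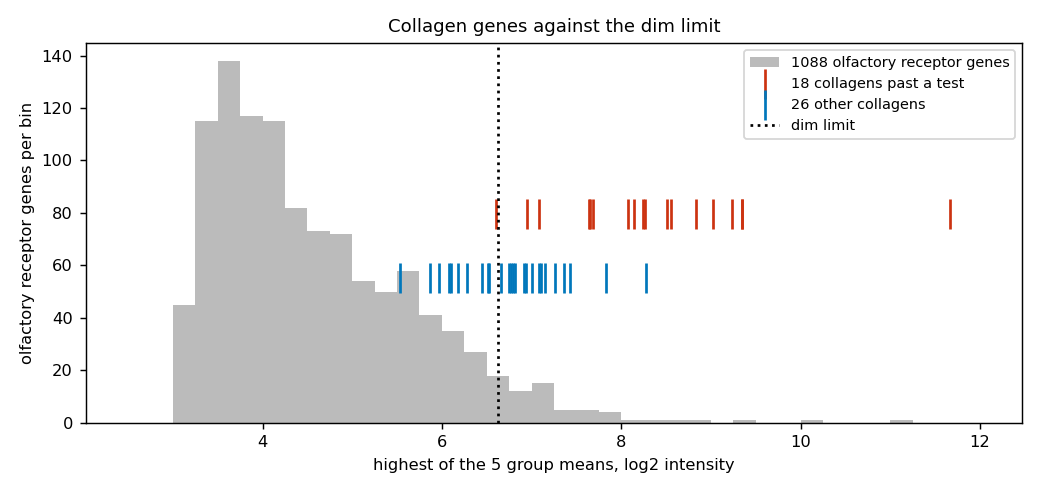
Histogram of the highest of the 5 group means (log2 intensity) of 1088 olfactory receptor genes, with the 18 collagens past the test in at least 1 comparison (upper marks) and the other 26 (lower marks). The dotted line is the dim limit of 6.62, and 11 collagens lie to its left.

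Low oxygen raised more collagen genes than it lowered, and both Hif1a siRNAs lowered collagens. In the hypoxia control against normoxia, 12 of 44 members rose and 3 fell at a limma adjusted p under 0.05, where 9.87% of all genes rose and 11.2% fell (21% in either direction). With Si1 against the negative control, 13 of 44 fell and 0 rose, where 14.8% of all genes fell and 20.2% rose (34.9% either way). At an unadjusted p under 0.05, 17 members passed in that comparison, in either direction. With Si6, 12 fell and 2 rose, where 11.9% of all genes fell and 17% rose (28.9% either way). The negative control against the hypoxia control had 5 members higher and 4 lower, where 7.8% and 7.51% of all genes moved these ways (15.3% in sum). Against normoxia the negative control had 10 members higher and 2 lower, where 14.6% and 15.7% of all genes were (30.3% in sum). Between the siRNAs, Si1 was higher than Si6 for 4 members and lower for 6, where 14.5% and 13.4% of all genes were (27.9% in sum). Most members hardly moved, and the median log2 difference of the 44 was 0.04 for the hypoxia control against normoxia, -0.07 with Si1 and -0.11 with Si6, beside medians of -0.0016, -0.01 and -0.01 over all genes. It was -0.03 between the hypoxic controls, 0.01 in the negative control against normoxia and -0.01 between the siRNAs, beside -0.0077, -0.0038 and 0.0025 over all genes. Both siRNA comparisons share the negative control arrays. The comparisons among normoxia and both hypoxic controls also share arrays with each other, but hypoxia control against normoxia shares none with the siRNA comparisons.

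In all 18 collagens (40.9%) passed the test in at least 1 of the 6 comparisons, where 53.2% of all genes did, and of these only Col14a1 was dim. For the other 26, which include 16 genes above the dim limit, the differences in all 6 comparisons lay between -0.24 and 0.16, and the 95% confidence intervals between -0.46 and 0.36. Of the 12 members that rose in the hypoxia control, 8 (66.7%) fell with Si1 and 7 (58.3%) with Si6. Of all 2190 genes that rose, 48% fell with Si1 and 48.9% with Si6. The 8 members were 61.5% of the collagens lowered by Si1 and the 7 were 58.3% of those lowered by Si6, where over all genes these shares were 32.1% and 40.7%. The overlap was not tested against that of all genes. The 6 genes that rose with low oxygen and fell with both siRNAs were Col2a1, Col5a1, Col4a2, Col8a1, Col10a1 and Col28a1. They were 50% of the 12 that rose, where 34.7% of all genes that rose fell with both. In the text a ± after a log2 difference is the standard error of the limma fit with 3 arrays in each group, and adjusted p-values are from that fit, corrected over all 22180 genes.

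**Figure D2:**
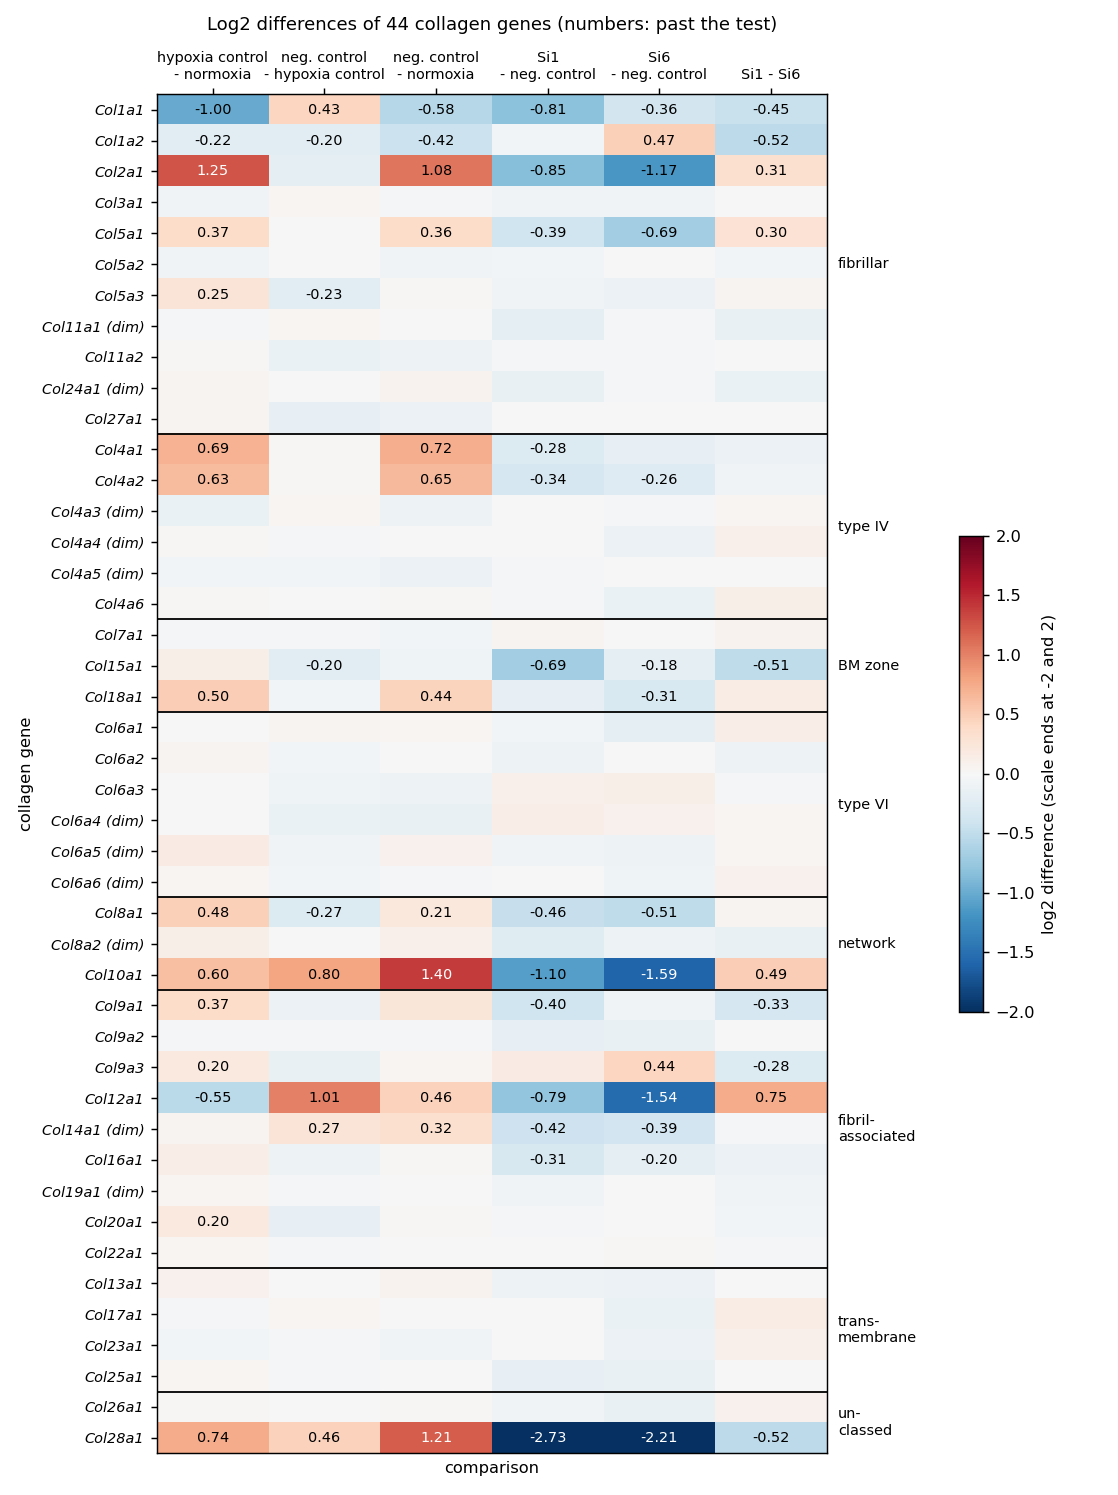
Log2 differences of the 44 collagen genes (rows, grouped by class, with BM zone for basement membrane zone) in the 6 comparisons (columns), blue for lower and red for higher, with the value printed where the gene passed the test. The type VI and transmembrane rows hold no printed value, and Col28a1 at the bottom has the darkest cells, at -2.73 and -2.21 with the siRNAs.

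Among the 11 fibrillar collagens the members moved in opposite directions. Col2a1, Col5a1 and Col5a3 rose in the hypoxia control while Col1a1 and Col1a2 fell. Col2a1 encodes the chain of type II collagen, the main fibre of cartilage. On the a, b and c arrays it read 7.64, 7.67 and 7.44 in normoxia, 8.86, 8.95 and 8.70 for the hypoxia control and 8.59, 8.58 and 8.81 in the negative control. In the siRNA groups it read 7.85, 7.76 and 7.81 with Si1 and 7.69, 7.28 and 7.50 with Si6. Every array of both hypoxic controls was above every normoxic and siRNA array. The rise was 1.25 ± 0.10 (adjusted p = 2.7e-07), a 2.38-fold increase, and the falls were -0.85 ± 0.10 with Si1 (adjusted p = 4.6e-06) and -1.17 ± 0.10 with Si6 (adjusted p = 3.3e-07).

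Type I collagen, the most abundant collagen of skin and bone, is normally built from the chains of Col1a1 and Col1a2 together. Col1a1 read 9.33, 9.26 and 9.45 in normoxia, 8.44, 8.22 and 8.37 for the hypoxia control and 8.80, 8.58 and 8.92 in the negative control. With Si1 it read 7.91, 8.08 and 7.87, and with Si6 8.33, 8.41 and 8.47. Normoxia was the highest group on every array and Si1 the lowest. Low oxygen lowered it to 0.499 of the normoxic level (-1.003 ± 0.09, adjusted p = 7.1e-07), the negative control stood 0.43 ± 0.09 above the hypoxia control (adjusted p = 0.0032), and against the negative control it was lower with Si1 (-0.81 ± 0.09, adjusted p = 2e-06) and with Si6 (-0.36 ± 0.09, adjusted p = 0.0047). Col1a2 read 7.65, 7.60 and 7.53 in normoxia, 7.36, 7.38 and 7.38 for the hypoxia control, 7.21, 7.12 and 7.18 in the negative control, 7.15, 7.17 and 7.04 with Si1, and 7.67, 7.61 and 7.64 with Si6. Its Si6 arrays were thus as high as the normoxic ones, and its Si1 arrays overlapped the negative control. The fall in low oxygen was -0.22 ± 0.05 (adjusted p = 0.0064), the Si6 difference was a rise of 0.47 ± 0.05 (adjusted p = 4.9e-06), and the Si1 difference did not pass the test, at -0.05 with a 95% interval from -0.16 to 0.06. A second, dimmer Col1a2 probe set with a mean of 4.47 had -0.21 in low oxygen and -0.01 with Si6. In the hypoxia control 2 of 10 fibroblast markers fell and 0 rose, where 11.2% of all genes fell and 9.87% rose. Thy1 was at -0.34 and Pdpn at -0.28, and 8 of the 10 did not pass. The list mean was 5.92 to 5.99 per array against 6.01 to 6.14 in normoxia. The part of these markers in the fall of the type I genes was not tested. In RNA from a whole culture, fewer cells of a kind and less RNA per cell cannot be told apart.

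Type V collagen sits inside type I fibres and limits their width. Col5a1 read 8.93, 8.76 and 8.92 in normoxia, 9.29, 9.27 and 9.16 for the hypoxia control, 9.08, 9.25 and 9.36 in the negative control, 8.85, 8.73 and 8.93 with Si1, and 8.61, 8.46 and 8.55 with Si6. Both hypoxic controls lay above normoxia and Si1, with Si6 the lowest on every array. The rise was 0.37 ± 0.08 (adjusted p = 0.0027) and the siRNA differences were -0.39 ± 0.08 (adjusted p = 0.00078) and -0.69 ± 0.08 (adjusted p = 5.9e-06). A dimmer second probe set, with a mean of 6.55, gave 0.14, -0.11 and -0.06 for these comparisons. Col5a3, another type V chain, read 8.03, 7.92 and 8.08 in normoxia and 8.23, 8.35 and 8.21 for the hypoxia control, but 8.06, 8.02 and 8.02 in the negative control. It read 7.95, 7.97 and 7.98 with Si1 and 7.93, 7.88 and 7.94 with Si6. Every hypoxia control array was above every other array. The rise with low oxygen was 0.25 ± 0.06 (adjusted p = 0.0034), the negative control against normoxia gave 0.02 (adjusted p = 0.82), and neither siRNA difference passed the test, at -0.07 and -0.11. The hypoxia control was also the higher of both hypoxic controls, by a difference of -0.23 ± 0.06 (adjusted p = 0.0091), a call lost without hypoxia control array b (-0.185, adjusted p = 0.058). Of the 6 fibrillar genes that passed no test, Col3a1 (type III, a partner of type I in soft tissue), Col5a2, Col11a2 and Col27a1 were above the dim limit. Their differences, with those of the dim Col11a1 and Col24a1, lay between -0.18 and 0.06.

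**Figure D3:**
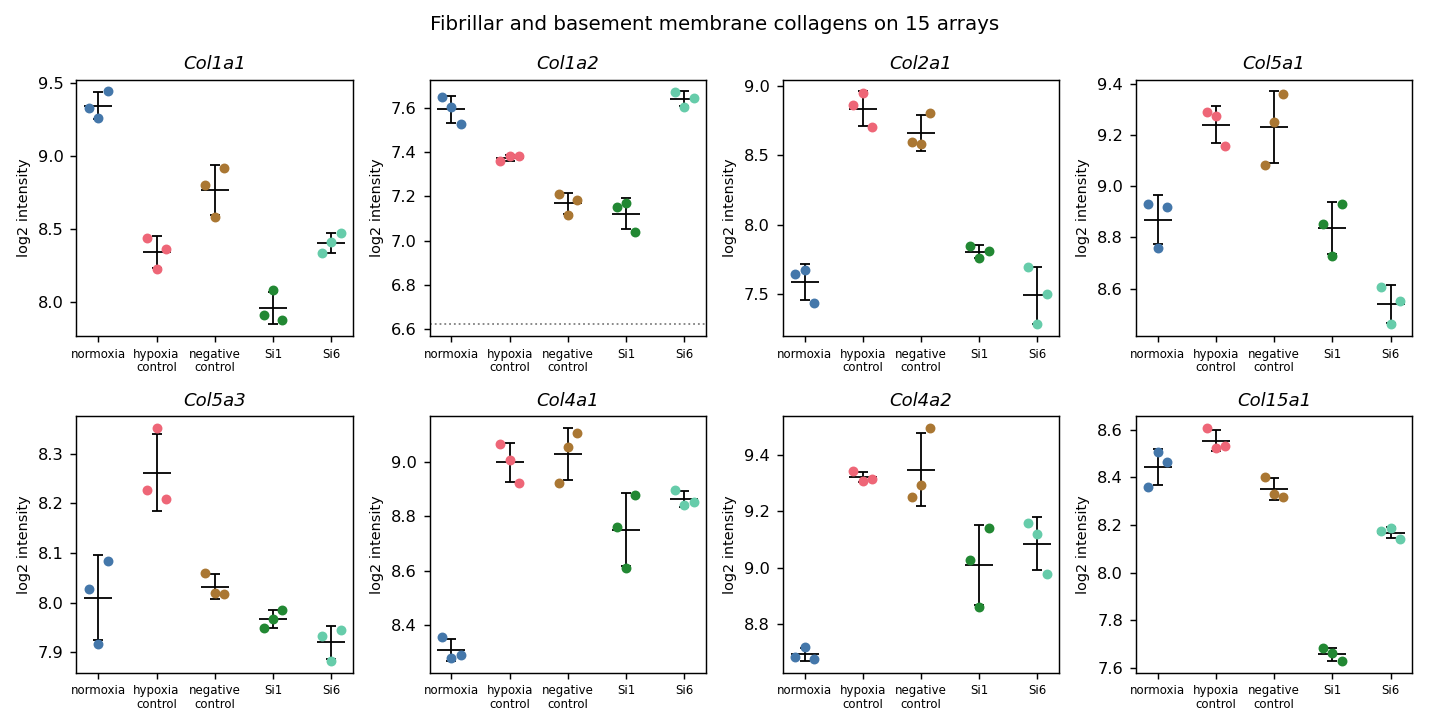
Log2 intensity of 8 collagen genes on the 15 arrays (points a, b and c from left to right in each group), with the group mean as a horizontal bar and the SD as a vertical bar. The y axes differ between panels and do not start at 0. Col2a1 is high in both hypoxic controls only, and Col1a1 is highest in normoxia.

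In the basement membrane, the chains of Col4a1 and Col4a2 make the common form of type IV collagen, and their genes lie side by side on opposite strands. In RefSeq annotation (GRCm38.p6) Col4a1 starts at 11312826 of chromosome 8 on the minus strand and Col4a2 at 11312805 on the plus strand, so their first 5′ bases overlap. Both rose with low oxygen and moved alike across the groups. Col4a1 read 8.36, 8.28 and 8.29 in normoxia, 9.07, 9.01 and 8.92 for the hypoxia control, 8.92, 9.06 and 9.11 in the negative control, 8.76, 8.61 and 8.88 with Si1, and 8.90, 8.84 and 8.85 with Si6. Col4a2 read 8.68, 8.72 and 8.67 in normoxia, 9.34, 9.31 and 9.32 for the hypoxia control, 9.25, 9.29 and 9.50 in the negative control, 9.03, 8.86 and 9.14 with Si1, and 9.16, 9.12 and 8.98 with Si6. In both genes every hypoxic array, siRNA groups included, was above every normoxic one. Low oxygen raised Col4a1 by 0.69 ± 0.07 (adjusted p = 2.9e-06) and Col4a2 by 0.63 ± 0.08 (adjusted p = 2.1e-05), and the negative control against normoxia gave 0.72 and 0.65. The siRNA differences were smaller than these rises. Si1 lowered Col4a1 by -0.28 ± 0.07 (adjusted p = 0.0045) and Col4a2 by -0.34 ± 0.08 (adjusted p = 0.0023). With Si6, Col4a2 was at -0.26 ± 0.08 (adjusted p = 0.016), a call lost without negative control array c (-0.19, adjusted p = 0.089), without Si6 array c (-0.21, adjusted p = 0.08) or after median centring (-0.22, adjusted p = 0.053). Col4a1 was at -0.17 with Si6 (adjusted p = 0.09, 95% interval -0.31 to -0.02), and it passed without negative control array a (-0.22, adjusted p = 0.041), after quantile normalization (-0.23, adjusted p = 0.018) and when the dimmer genes were left out before the fit (adjusted p = 0.038). The other 4 type IV genes, whose chains are confined to fewer tissues, passed no test, with differences between -0.14 and 0.11, and 3 of them were dim.

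Col15a1, Col18a1 and Col7a1 encode collagens of the basement membrane zone. Col15a1 read 8.36, 8.50 and 8.47 in normoxia, 8.61, 8.52 and 8.53 for the hypoxia control, 8.40, 8.33 and 8.32 in the negative control, 7.68, 7.66 and 7.63 with Si1, and 8.17, 8.19 and 8.14 with Si6. Si1 stood far below all other arrays, and low oxygen alone gave no call (0.11, adjusted p = 0.16; after quantile normalization 0.16, adjusted p = 0.025). The difference was -0.69 ± 0.05 with Si1 (adjusted p = 3.6e-08) and -0.18 ± 0.05 with Si6 (adjusted p = 0.013), where the Si6 call was lost without negative control array a (-0.16, adjusted p = 0.062) or after median centring (-0.14, adjusted p = 0.082). The negative control was at -0.20 ± 0.05 against the hypoxia control (adjusted p = 0.012), a call lost without hypoxia control array a (-0.18, adjusted p = 0.063). Col18a1, whose cleaved end is endostatin, an inhibitor of vessel growth, had group means of 6.45 in normoxia, 6.95 for the hypoxia control, 6.90 in the negative control, 6.74 with Si1 and 6.59 with Si6. Its means in normoxia and with Si6 were under the dim limit, so the sizes of differences against them are uncertain. It rose by 0.50 ± 0.09 with low oxygen (adjusted p = 0.0012). It was at -0.31 ± 0.09 with Si6 (adjusted p = 0.022), which did not hold without negative control array c (-0.22, adjusted p = 0.12) or Si6 array b or c (-0.29 and -0.30, adjusted p = 0.067 and 0.059), and at -0.16 with Si1 (adjusted p = 0.24). Col7a1, the anchoring fibril collagen that ties epidermis to dermis, passed no test, with group means between 7.20 and 7.26.

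Col28a1 had the largest siRNA differences of any collagen. It encodes type XXVIII collagen, a member with von Willebrand factor A domains that in mice is found mainly around nerve fibres. It read 7.30, 7.30 and 7.32 in normoxia, 8.15, 8.09 and 7.91 for the hypoxia control and 8.53, 8.64 and 8.37 in the negative control. With Si1 it read 5.75, 5.63 and 5.97 and with Si6 6.23, 6.54 and 6.15, so that all 6 siRNA arrays were under the dim limit and under every normoxic array. Low oxygen raised it by 0.74 ± 0.11 (adjusted p = 9.5e-05), and the negative control was a further 0.46 ± 0.11 higher (adjusted p = 0.0066). Si1 changed it by -2.73 ± 0.11 (adjusted p = 3.7e-11), which left 0.151 of the negative control level, and Si6 by -2.21 ± 0.11 (adjusted p = 7.6e-10), which left 0.217. Because the siRNA values are dim, these falls may be understated. The other collagen outside the classes, Col26a1, passed no test, with group means between 7.28 and 7.43.

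The short-chain network collagens Col8a1 and Col10a1 also rose with low oxygen and fell with both siRNAs. Col8a1 (type VIII, found in vessel walls and the cornea) read 11.19 on all 3 normoxic arrays, 11.72, 11.63 and 11.66 for the hypoxia control, 11.38, 11.32 and 11.51 in the negative control, 11.01, 10.91 and 10.92 with Si1, and 10.93, 10.84 and 10.90 with Si6. Its normoxic values were identical at 11.194 (SD 0), so that group adds no spread to the fit, and the reason was not tested. Exact ties between arrays also occurred in other members, so their spread may be understated too. Examples are Col28a1 (7.2974 on normoxia arrays a and b), Col12a1 (6.9081 on Si1 arrays a and c), Col4a4 and Col4a6. The siRNA arrays of Col8a1 were all below normoxia, and its hypoxic controls all above it. Its rise was 0.48 ± 0.06 (adjusted p = 1.5e-05), the negative control was at -0.27 ± 0.06 against the hypoxia control (adjusted p = 0.0035), and the siRNA differences were -0.46 ± 0.06 (adjusted p = 7.4e-06) and -0.51 ± 0.06 (adjusted p = 3.9e-06). Col10a1, the type X collagen of cartilage that is turning into bone, read 6.30, 6.35 and 6.19 in normoxia, 6.84, 6.91 and 6.90 for the hypoxia control, 7.75, 7.45 and 7.83 in the negative control, 6.55, 6.63 and 6.56 with Si1, and 6.11, 6.04 and 6.11 with Si6. The 5 groups did not overlap, with the negative control the highest and Si6 the lowest. Low oxygen raised it by 0.60 ± 0.08 (adjusted p = 4.4e-05), the negative control was 0.80 ± 0.08 above the hypoxia control (adjusted p = 4.6e-06), and the siRNA differences were -1.10 ± 0.08 (adjusted p = 2.7e-08) and -1.59 ± 0.08 (adjusted p = 1.1e-09). Its group means in normoxia, Si1 and Si6 were under the dim limit. Col10a1 overlaps Nt5dc1 in the RefSeq annotation, and the probe set of Nt5dc1 moved otherwise, at -0.50 with low oxygen, -0.03 between the hypoxic controls, -0.30 with Si1 and 0.24 with Si6.

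Fibril-associated collagens, which coat the surface of fibres, included the gene that differed most between both hypoxic controls. Col12a1 (type XII, common in tissue under tension) read 7.28, 7.06 and 7.22 in normoxia, 6.70, 6.76 and 6.47 for the hypoxia control, 7.62, 7.65 and 7.68 in the negative control, 6.91, 6.77 and 6.91 with Si1, and 6.13, 6.11 and 6.09 with Si6. The hypoxia control was thus below normoxia and the negative control above it, on every array. The differences were -0.55 ± 0.08 with low oxygen (adjusted p = 6.9e-05), 1.01 ± 0.08 between the hypoxic controls (adjusted p = 2.9e-07), -0.79 ± 0.08 with Si1 (adjusted p = 5.3e-07) and -1.54 ± 0.08 with Si6 (adjusted p = 9e-10). The Si6 mean of 6.11 was under the dim limit. The direction in low oxygen turned with the control used, at 0.46 ± 0.08 in the negative control against normoxia (adjusted p = 0.00018). Col14a1, a close relative, was dim in all groups, with means from 6.18 to 6.60. It was highest in the negative control, with 0.27 against the hypoxia control (adjusted p = 0.033, lost without any 1 of 5 of the 6 arrays, all but negative control array a, at 0.25 to 0.27 and adjusted p = 0.08 to 0.098), and at -0.42 and -0.39 with the siRNAs (adjusted p = 0.0005 and 0.0014).

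Col16a1 had group means of 8.11 in normoxia, 8.24 for the hypoxia control, 8.14 in the negative control, 7.83 with Si1 and 7.94 with Si6. Low oxygen gave no call (0.13, adjusted p = 0.1), though it did after quantile normalization (0.17, adjusted p = 0.043) or without the dimmer genes (adjusted p = 0.037), and the siRNA differences were -0.31 ± 0.05 (adjusted p = 0.00018) and -0.20 ± 0.05 (adjusted p = 0.0087). The type IX genes, whose chains decorate type II fibres in cartilage, did not move together. Col9a1 rose by 0.37 ± 0.10 with low oxygen (adjusted p = 0.011, and 0.053 without normoxia array c at 0.32) and was at -0.40 ± 0.10 with Si1 (adjusted p = 0.0031). Col9a2 passed no test. Col9a3 was the only collagen besides Col1a2 that was higher with Si6, by 0.44 ± 0.06 (adjusted p = 7.5e-05), while Si1 gave 0.16 (adjusted p = 0.075), which passed after median centring (0.20, adjusted p = 0.021), without Si1 array c (0.20, adjusted p = 0.035) and without the dimmer genes (adjusted p = 0.031). In RefSeq annotation Col9a3 overlaps Tcfl5, whose differences lay between -0.09 and 0.08. Its rise with low oxygen, 0.20 ± 0.06 (adjusted p = 0.038), was lost without hypoxia control array b or c or normoxia array b or c (0.15 to 0.22, adjusted p = 0.053 to 0.18), and with only the compared groups in the fit (adjusted p = 0.088). The rise of Col20a1, 0.20 ± 0.06 (adjusted p = 0.042), was lost without hypoxia control array a or b or any 1 normoxic array (0.16 to 0.22, adjusted p = 0.051 to 0.17), after median centring (adjusted p = 0.056) and with only the compared groups (adjusted p = 0.085). Col19a1, which was dim, and Col22a1 passed no test.

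**Figure D4:**
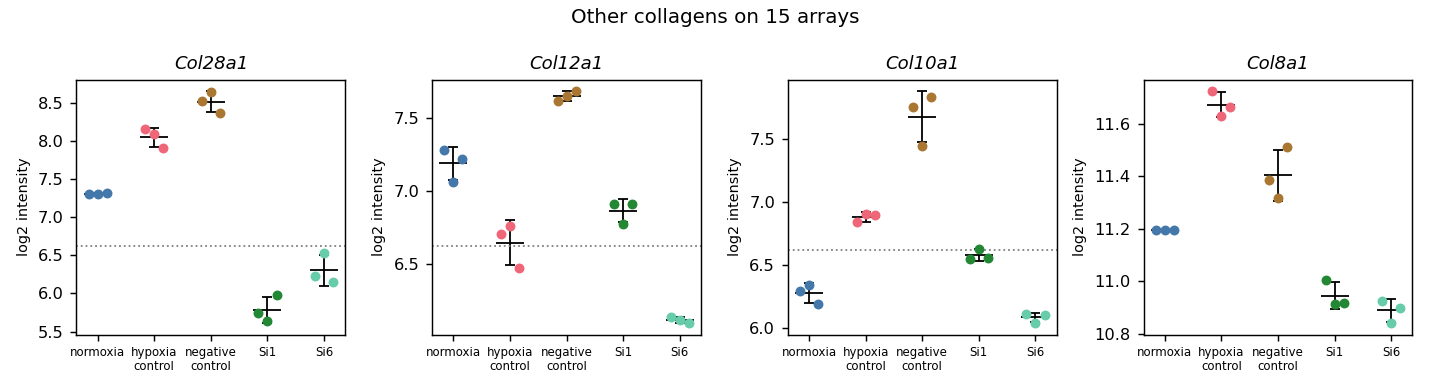
Log2 intensity of 4 further collagen genes on the 15 arrays, drawn as points a, b and c from left to right with the group mean and SD, and the dim limit of 6.62 as a dotted line where it is in range. The y axes differ and do not start at 0. Col28a1 falls below the limit in both siRNA groups, and Col12a1 is high in the negative control but low in the hypoxia control.

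Type VI collagens, which form beaded filaments, and the transmembrane collagens gave no call. Their 10 genes had differences between -0.20 and 0.16 over the 6 comparisons. Col6a1, Col6a2 and Col6a3, the common chains of type VI, had group means of 6.96 to 7.16, 6.78 to 6.94 and 6.64 to 6.77. All 4 transmembrane genes were above the dim limit, and Col17a1, which anchors basal keratinocytes, ranged from 6.61 to 6.75.

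Promoter sequences were read for the members that rose with low oxygen and fell with both siRNAs, because HIF-1 binds short elements with the core ACGTG or GCGTG. RefSeq promoter windows (GRCm38.p6) were matched by symbol for 35 of the 44 collagens, and for 5 of these 6. The 250 bases before the start site are shown for Col28a1 (chr6:8192618-8192867, minus strand), Col10a1 (chr10:34389731-34389980, plus strand), Col8a1 (chr16:57754738-57754987, minus strand) and Col5a1 (chr2:27886175-27886424, plus strand), 5′ to 3′, with any match to ACGTG or GCGTG on either strand in capitals.
Col28a1: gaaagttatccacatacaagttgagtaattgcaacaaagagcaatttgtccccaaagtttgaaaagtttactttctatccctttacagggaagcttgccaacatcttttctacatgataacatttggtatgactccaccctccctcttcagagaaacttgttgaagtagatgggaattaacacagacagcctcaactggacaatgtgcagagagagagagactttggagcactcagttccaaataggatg
Col10a1: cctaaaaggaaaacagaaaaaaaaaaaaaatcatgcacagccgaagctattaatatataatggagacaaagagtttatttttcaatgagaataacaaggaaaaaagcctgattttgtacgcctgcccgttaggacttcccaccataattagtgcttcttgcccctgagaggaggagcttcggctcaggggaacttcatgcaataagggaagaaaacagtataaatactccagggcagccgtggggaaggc
Col8a1: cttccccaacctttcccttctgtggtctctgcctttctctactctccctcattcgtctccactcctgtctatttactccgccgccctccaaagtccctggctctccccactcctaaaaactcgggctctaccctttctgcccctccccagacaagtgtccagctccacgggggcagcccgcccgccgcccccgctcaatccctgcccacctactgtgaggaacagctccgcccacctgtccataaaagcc
Col5a1: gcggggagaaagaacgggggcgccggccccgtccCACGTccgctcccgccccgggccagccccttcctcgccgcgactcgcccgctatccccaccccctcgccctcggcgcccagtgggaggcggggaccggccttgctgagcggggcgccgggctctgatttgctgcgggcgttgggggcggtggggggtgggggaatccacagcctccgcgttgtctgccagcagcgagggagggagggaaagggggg
Of the 4 windows shown, only that of Col5a1 held a match, ACGTG on the other strand, 216 bases before the start. Col4a2, also among the 5 genes with a window, was not shown and held 1 GCGTG, 105 bases before its start. Its neighbour Col4a1, which is not among the 6 genes, also held 1 GCGTG in its own window. Over all collagens with a window, 11 of 35 genes, with 38 windows between them, had a match to either motif. Of all 32851 promoters 38.6% had one, a share per window and not per gene. By motif the shares were 16.6% for ACGTG and 28.2% for GCGTG, read on both strands, and a promoter with both motifs counts in each. A match is a string of letters only, and the rest of each gene was not searched.

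The hypoxic controls differed in pigment cell markers as well as in collagens. In the negative control 9 of 10 melanocyte markers were lower than in the hypoxia control, where 7.51% of all genes were, with a list mean per array of 10.83 to 10.87 against 11.38 to 11.44. In the same comparison Col12a1, Col10a1, Col28a1, Col1a1 and Col14a1 were higher and Col8a1, Col5a3, Col15a1 and Col1a2 lower. The Col1a2 difference, -0.20 ± 0.05 (adjusted p = 0.014), was lost without negative control array b (-0.18, adjusted p = 0.068) and with the mean of its probe sets (-0.06, adjusted p = 0.52). Of the fibroblast markers 0 were higher and 1, Lum, was lower, at a dim level (-0.25). Melanocyte markers moved in the other comparisons too. In the hypoxia control 6 of 10 were lower than in normoxia, where 11.2% of all genes were. The list mean was 11.38 to 11.44 against 11.71 to 11.77 per array. With Si1 6 were lower, where 14.8% of all genes were. With Si6 5 were higher and 1 lower, where 17% and 11.9% of all genes were. Whether the marker differences have a part in the collagen ones was not tested.

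In all 10 of 44 collagens (22.7%) differed between the siRNAs, where 27.9% of all genes did. Si6 gave the lower level for Col12a1 (Si1 minus Si6, 0.75 ± 0.08, adjusted p = 1.6e-06), Col10a1 (0.49 ± 0.08, adjusted p = 0.00018), Col2a1 (0.31 ± 0.10, adjusted p = 0.028) and Col5a1 (0.30 ± 0.08, adjusted p = 0.0095). Si1 gave the lower level for Col1a2 (-0.52 ± 0.05, adjusted p = 1.7e-06), Col28a1 (-0.52 ± 0.11, adjusted p = 0.0014), Col15a1 (-0.51 ± 0.05, adjusted p = 1.7e-06), Col1a1 (-0.45 ± 0.09, adjusted p = 0.00095), Col9a1 (-0.33 ± 0.10, adjusted p = 0.016) and Col9a3 (-0.28 ± 0.06, adjusted p = 0.0035). Both siRNA means of Col28a1 (5.79 and 6.31) and of Col10a1 (6.58 and 6.09) were under the dim limit, as were Col12a1 with Si6 (6.11) and Col9a1 with Si1 (6.56), so the sizes of these differences are uncertain, and for Col28a1 and Col10a1 both values compared are near background. The Col2a1 call was lost without Si1 array a or c or Si6 array b or c (0.21 to 0.32, adjusted p = 0.061 to 0.15), that of Col9a1 without Si1 or Si6 array c (-0.21 and -0.27, adjusted p = 0.088 and 0.078) or with only the compared groups (adjusted p = 0.077), and that of Col5a1 with the mean of its probe sets (0.13, adjusted p = 0.3). Col4a1, Col4a2 and Col8a1 did not pass, with 95% intervals of -0.26 to 0.04, -0.24 to 0.09 and -0.06 to 0.18. All 10 melanocyte markers were lower with Si1 than with Si6, where 13.4% of all genes were. Their list means per array were 10.53 to 10.58 against 11.11 to 11.20. Of 6 macrophage markers, 5 of which were dim, 3 were higher with Si1 than in the negative control and 0 lower. Over all genes these shares were 20.2% and 14.8%. The macrophage list means per array were 6.21 to 6.28 with Si1, 5.86 to 5.99 in the negative control and 5.93 to 5.97 with Si6. Against Si6, 2 macrophage markers were higher with Si1 and 0 lower, where 14.5% and 13.4% of all genes were. The part of these markers in the collagen differences was not tested.

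**Figure D5:**
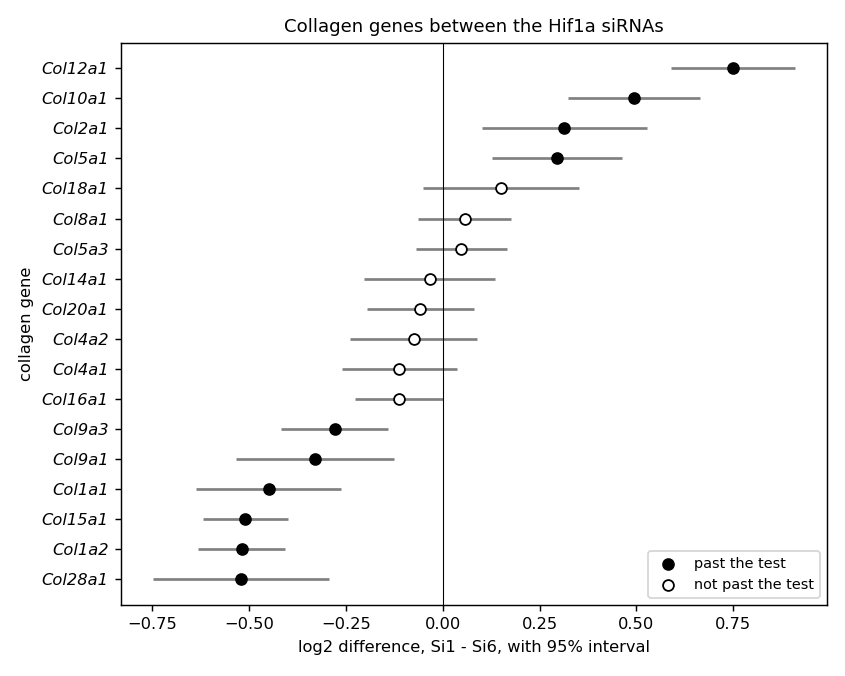
Log2 difference Si1 minus Si6 of the 18 collagens past the test in at least 1 comparison, with 95% confidence intervals, filled where the difference passed the test. Col12a1 (0.75) is at the top, lower with Si6, and Col28a1 (-0.52) at the bottom, lower with Si1.

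Genes that make and hold collagen were read in the same fit. Over all genes, 9.87% rose and 11.2% fell with low oxygen, 20.2% rose and 14.8% fell with Si1, and 17% rose and 11.9% fell with Si6, and the counts of each list stand against these shares. Of 17 measured hydroxylases, crosslinkers and chaperones, 8 rose and 3 fell with low oxygen, and 2 rose and 11 fell with Si1, 2 and 9 with Si6. In percent, 64.7% of that list passed with low oxygen, 76.5% with Si1 and 64.7% with Si6. The prolyl hydroxylase subunits P4ha2 (2.36 ± 0.09) and P4ha1 (1.79 ± 0.05) and the lysyl hydroxylase Plod2 (1.29 ± 0.09) rose most, and with Si1 they were at -1.85, -1.08 and -1.08. With Si6 P4ha2 was at -1.77 and P4ha1 at -0.63. The 3 members that fell with low oxygen were P4ha3 (-0.92), Lox (-0.72) and Loxl3 (-0.29). The means of P4ha2 in normoxia (6.56) and of P4ha3 (6.55) and Lox (6.07) in the hypoxia control were under the dim limit. The sizes of these differences are therefore uncertain. Of 9 collagen receptors 5 rose and 0 fell with low oxygen by limma (6 at an unadjusted p under 0.05 in either direction), while 4 fell with each siRNA and 2 rose with Si1 and 1 with Si6. Itga2, a collagen-binding integrin subunit, was at 1.01 with low oxygen, -1.91 with Si1 and -1.98 with Si6, its relative Itga1 at 0.60, -0.86 and -1.16, and the receptor kinase Ddr2 at -0.25 (not past the test), 0.76 and 0.49. Of 14 genes of procollagen export and cleavage 3 rose and 3 fell with low oxygen, 6 rose and 2 fell with Si1 and 4 rose and 2 fell with Si6 (42.9%, 57.1% and 42.9% in either direction). The procollagen peptidase Adamts14 rose by 1.30 with Si1 and fell by 0.46 with Si6, and the export coat subunit Sec23a was at -1.27 and -0.26. Of 17 basement membrane partners 7 rose and 1 fell with low oxygen, 1 rose and 4 fell with Si1, and 3 rose and 8 fell with Si6 (47.1%, 29.4% and 64.7% in either direction, where 21%, 34.9% and 28.9% of all genes passed). The perlecan gene Hspg2 (0.80), the nidogen Nid2 (0.70) and the laminin chain Lamb1 (0.52) rose beside Col4a1 and Col4a2. With Si1 these partners did not pass the test, at -0.03, 0.12 and -0.165, and with Si6 they fell, at -0.42, -0.73 and -0.38. The other partners that rose were Lama4 (0.42), Lamc1 (0.39), Agrn (0.23) and Sparc (0.23). With Si1, Lama4, Lamc1 and Agrn fell, at -0.42, -0.25 and -0.50, and Sparc did not pass (-0.10). With Si6, Lama4, Agrn and Sparc fell, at -0.26, -0.86 and -0.26, and Lamc1 rose by 0.36. The lowest values of the list were those of Lamb2 with Si1 (-0.74) and of Agrn with Si6 (-0.86).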

How the data were processed

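The deposited table gives log2 intensities of 41345 probe sets on 15 arrays, made by the authors with RMA and Partek, per the submitters' processing notes; the sources used here give no versions, settings or filters. Intensities normalized between arrays cannot show a shift of all genes at once, and near background they understate change. By platform annotation 23521 probe sets had 1 symbol, 1814 several and 16010 none, and the brightest probe set stood for each of 22180 genes. All 15 arrays entered 1 linear model with 5 group means in limma 3.58.1 under R 4.3.3 (lmFit, eBayes, two-sided, Benjamini-Hochberg over all genes, threshold 0.05), a route tested on simulated data. Replicate letters did not pair the samples. Collagens above the dim limit and past the test at least once were named, the up to 6 largest per comparison array by array, and up to 3 genes past the test per comparison from each other list. The differences of the dim Col14a1, the overlapping genes, the markers Thy1, Pdpn and Lum and the partners Lama4, Lamc1 and Sparc fall outside this rule. They were chosen after their values were seen. Members and lists were chosen with earlier results of these data known. The array number limits the precision.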

Additional observations from a re-analysis of the deposited data

Results flagged for a closer look

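For 10 collagens the effects of both siRNAs, each against the same negative control, differed by the test of Si1 minus Si6, which is 22.7% of the collagens, where 27.9% of all genes differed. On the log2 scale the difference was positive, with Si6 the lower, for Col12a1 (0.75), Col10a1 (0.49), Col2a1 (0.31) and Col5a1 (0.30). It was negative for Col1a2 (-0.52), Col28a1 (-0.52), Col15a1 (-0.51), Col1a1 (-0.45), Col9a1 (-0.33) and Col9a3 (-0.28). Both siRNA means were under the dim limit for Col28a1 and Col10a1, as was the Si6 mean of Col12a1 and the Si1 mean of Col9a1, so those values are uncertain. Col1a2 was raised by Si6 (0.47) and at -0.05 with Si1.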

How the results depend on the processing

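The counts of collagens past the test stayed within 1.5 times the reported ones under all 7 alternatives (quantile normalization, median centring, leaving out the dimmer genes by mean level, the mean of probe sets, trended and robust variance moderation, a replicate block and only the compared groups) and on leaving out each array. Over the alternatives they ran from 12 to 17 (15 as reported) in the hypoxia control against normoxia, 8 to 9 (9) between the hypoxic controls, 8 to 13 (12) in the negative control against normoxia, 10 to 14 (13) with Si1, 11 to 15 (14) with Si6 and 7 to 10 (10) between the siRNAs. Leaving out the dimmer genes, which removes members, gave the lowest count in each comparison, and between the hypoxic controls the mean of probe sets and the replicate block gave the same count. Leaving out 1 array gave 12 to 14, 7 to 9, 12 to 13, 13 to 15, 12 to 14 and 8 to 11. Of 73 gene and comparison pairs past the test, 60 passed in every alternative that gave a value, and none of the 18 genes reversed a called direction; 41 of 1374 refits lost a call and 14 gained one. With the replicate block 13, 8, 12, 13, 14 and 10 collagens passed, without the low-oxygen calls of Col20a1 and Col9a3 (adjusted p = 0.061 and 0.057) and that of Col14a1 between the hypoxic controls (0.051); same-letter arrays correlated at -0.22 to 0.15 in their deviations from group means, so the letters share only a name. The dim limit left 33 collagens above it, 31 with the mean of probe sets and 24 with the median of all genes as the limit. Without detection calls, dim members have only a weak upper bound on change.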

Other observations

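Collagen-degrading proteases and their inhibitors differed between the siRNAs, with Si1 higher than Si6 for 7 of 13 measured genes and lower for 0 by limma (8 at an unadjusted p under 0.05 in either direction), where 14.5% of all genes were higher. The inhibitor Timp1 was at 1.54 with Si1 and -0.41 with Si6, the gelatinase Mmp9 at 1.26 and -0.11 (not past the test), and the collagenase Mmp1a, which was dim in every group, at 2.26 and -0.04 (not past the test). Of 13 partners of fibrillar matrix, 6 rose and 0 fell with low oxygen by limma, where 9.87% and 11.2% of all genes did, and the same number, 6, passed at an unadjusted p under 0.05. Fmod, a small proteoglycan that binds fibrils, was at 1.31 with low oxygen, -1.44 with Si1 and -1.03 with Si6, and the matrix protein Postn at 0.66, -1.39 and -1.27. Tnc, a matrix glycoprotein of wounds, parted the siRNAs, at 1.35 with Si1 and -1.67 with Si6.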
